A study of Homo sapiens with 9 samples.

Results

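The colony-stimulating factors are the secreted growth factors CSF1 (M-CSF), CSF2 (GM-CSF) and CSF3 (G-CSF). The 3 genes were taken by symbol from the authors' gene table and matched by Ensembl identifier to the counts of 9 RNA-seq libraries, which list 64253 gene identifiers. Each symbol had 1 identifier, all 3 genes had reads, and 2 of the 3 (CSF1 and CSF3) passed the filter on low counts, CSF3 through its reads in shRRM2/shp16 alone. The cells were IMR90, a human fetal lung fibroblast line with a finite lifespan in culture. All groups were grown at 2% oxygen, used at population doubling 30, infected with pLKO.1 lentivirus a second time 24 hours after the first, and selected with 3 ug/mL puromycin for 7 days. Control libraries carried the vector alone, which the sample labels call empty and the treatment protocol calls GFP. The shRRM2 libraries, labelled senescent, carried a short hairpin RNA targeting RRM2, a subunit of ribonucleotide reductase, which supplies deoxyribonucleotides. The shRRM2/shp16 libraries, labelled as having bypassed senescence, carried that hairpin and another against p16, which is encoded by CDKN2A. Each group has 3 libraries, a, b and c, the labels name 1 hairpin clone for each hairpin group, and no group had the p16 hairpin alone. The labels do not say whether the libraries of a group came from separate cultures, so the p-values measure only the spread between these libraries, which may be technical.

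CSF1 drives the survival and growth of monocytes and macrophages through the receptor kinase CSF1R, and fibroblasts are a common steady source of it. CSF2 acts on macrophages, granulocytes and dendritic cells through a receptor made of CSF2RA and the shared chain CSF2RB. CSF3 drives neutrophil production through CSF3R. CSF2 and CSF3 are usually low in resting fibroblasts and are induced by inflammatory cytokines such as interleukin-1, and their mRNAs are short-lived because of AU-rich elements in the 3′ untranslated region. Both are listed among the secreted factors of senescent cells.

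Gene-assigned reads ran from 15770895 to 24873291 per library. Reads outside annotated genes separated the groups, at 17.6% to 18.9% of uniquely aligned reads in control, 27.7% to 28.8% in shRRM2 and 23.5% to 24.4% in shRRM2/shp16, and their part in the results was not tested. RRM2 was at 485 ± 5.2, 62.1 ± 1.9 and 177 ± 3.0 CPM (counts scaled to library size and given on the usual CPM scale, mean ± SD, n = 3) in control, shRRM2 and shRRM2/shp16, so the groups that share the RRM2 hairpin differed in RRM2 mRNA. CDKN2A was at 6.02 ± 0.11 CPM, 6.50 ± 0.46 CPM and 4.28 ± 0.32 CPM in the same order. The summed level of 10 fibroblast markers was 27108 to 27975 CPM in control, 26456 to 27248 in shRRM2 and 22814 to 23414 in shRRM2/shp16. Single fibroblast markers moved both ways, with VIM at 5334, 3525 and 2136 CPM and PDGFRA at 263, 187 and 709 CPM in that order. In all 9 libraries 8 myeloid markers summed to between 1.97 and 5.45 CPM, with AIF1 at 0. The lymphoid markers CD3E, CD2, MS4A1 and NKG7 had 0 reads in every library, and CD3D had 2 reads over all 9 libraries. By group the myeloid sum spanned 1.97 to 2.91 in control, then 4.33 to 5.45 with shRRM2 and 3.19 to 3.91 with both hairpins. The sum of 4 endothelial markers was 64.0 to 71.7 CPM in the control and shRRM2 libraries and 110.5 to 120.1 CPM with both hairpins, nearly all from TEK, and 4 epithelial markers summed to 1.13 to 2.53 CPM. The part of these markers in the results was not tested. In RNA from whole cultures, fewer cells that express a gene and less RNA per cell cannot be told apart.

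The AU-rich stretches are shown because the CSF2 and CSF3 mRNAs are known for them and because factors that act on them were measured in the same libraries. Each line gives the 30 bases of the annotated 3′ untranslated region with the most copies of the pentamer ATTTA, as DNA letters 5′ to 3′ on the plus strand, with every ATTTA in capitals.
CSF1: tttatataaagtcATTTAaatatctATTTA
CSF2: ttttaaaatATTTATTTATTTATTTATTTA
CSF3: tcccatgtATTTAtctctATTTAatATTTA
They were read from GENCODE release 29 transcripts on GRCh38 and lie at chr1:109930911-109930940 in CSF1-201, chr5:132076072-132076101 in CSF2-201 and chr17:40016975-40017004 in CSF3-201. The CSF2 stretch holds 5 overlapping pentamers, that of CSF3 holds 3 and that of CSF1 holds 2. Over the whole 3′ untranslated region, CSF2-201 had 8 copies in 318 bases, CSF3-201 had 7 in 854 bases and CSF1-201 had 4 in 2154 bases. Longer regions hold more copies by length alone. Among protein-coding genes with a region within 10% of the same length, at least as many copies were found in 0% of 827 genes for CSF2, 1.58% of 1076 genes for CSF3 and 56.1% of 1028 genes for CSF1. The longer motif TTATTTATT, which contains the pentamer, occurred 3 times in CSF2-201 and 0 times in CSF3-201 and CSF1-201, and 1.93% of the genes matched in length to CSF2 held it. CSF1 also has an annotated transcript with another 3′ end, whose region of 694 bases had 0 copies of ATTTA, and the gene-level counts do not separate the transcripts. Only the transcribed strand was searched, and a match describes the letters and not a working element.

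CSF1 (ENSG00000184371, GRCh38 chr1:109910242-109930992, plus strand) was the main colony-stimulating factor mRNA of control and shRRM2 cells, and its level rose modestly in shRRM2 and fell in shRRM2/shp16 to below control. In control libraries a, b and c it had 881, 674 and 617 reads, or 36.9, 37.7 and 36.8 CPM. In shRRM2 it had 713, 797 and 796 reads, or 45.3, 46.0 and 45.7 CPM. In shRRM2/shp16 it had 554, 563 and 535 reads, or 29.3, 28.0 and 28.8 CPM. All 3 shRRM2 libraries lay above all controls and all 3 shRRM2/shp16 libraries lay below them. The share of all tested genes that separate in this way was not counted, so the separation does not set CSF1 apart.

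Against control, CSF1 in shRRM2 rose by 0.30 ± 0.05 on the log2 scale (fitted log2 fold change ± SE; edgeR quasi-likelihood test, adjusted p = 1.9e-06). Against shRRM2, CSF1 in shRRM2/shp16 changed by -0.67 ± 0.05 on that scale (edgeR, adjusted p = 5.4e-15), which is 62.8% of the shRRM2 level. Against control, the value in shRRM2/shp16 was -0.37 ± 0.05 (edgeR, adjusted p = 5.4e-08), or 77.3% of control. Many genes passed the same threshold of an adjusted p under 0.05. In shRRM2 against control 29.0% of the 16561 tested genes were higher and 31.8% lower, in shRRM2/shp16 against shRRM2 31.9% were higher and 29.1% lower, and in shRRM2/shp16 against control 30.0% were higher and 32.4% lower. A call alone therefore does not set CSF1 apart, and its rise in shRRM2 was within the middle of the distribution, below the 75th percentile of all tested genes at 0.36. In the authors' deposited table, the value for CSF1 in shRRM2/shp16 against shRRM2 is -0.51 on the log2 scale (q-value 4.4e-04).

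**Figure D1:**
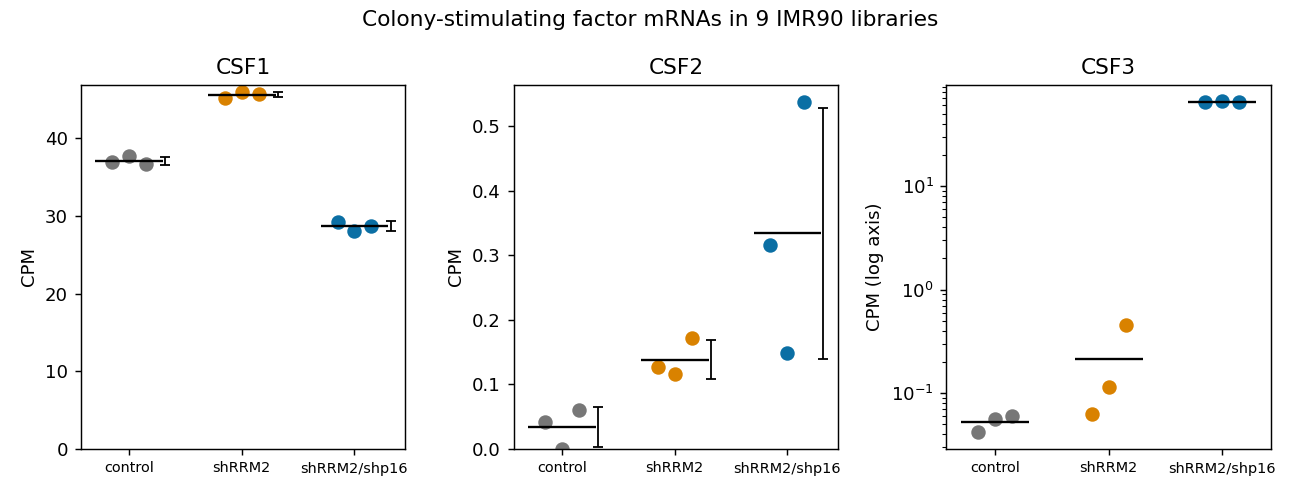
CPM of CSF1, CSF2 and CSF3 in each of the 9 libraries (points), by group, with the group mean (horizontal line) and, for CSF1 and CSF2, the SD over 3 libraries (bar at the side). The CSF3 axis is logarithmic. CSF1 separates into 3 levels, CSF2 stays below 0.6 CPM throughout, and the 3 CSF3 values of shRRM2/shp16 sit between 64.8 and 65.4 CPM, far above the other 6 libraries.

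CSF3 (ENSG00000108342, GRCh38 chr17:40015361-40017813, plus strand) was close to absent from control and shRRM2 libraries and abundant in every shRRM2/shp16 library. In control it had 1 read in each of the 3 libraries, or 0.0419, 0.0559 and 0.0596 CPM. In shRRM2 it had 1, 2 and 8 reads, or 0.0635, 0.115 and 0.459 CPM. In shRRM2/shp16 it had 1226, 1313 and 1213 reads, or 64.8, 65.4 and 65.2 CPM. The shRRM2/shp16 libraries were at 65.1 ± 0.32 CPM (SD, n = 3) and lay above all the others. At 1213 to 1313 reads this SD is below what counting error alone gives, so it does not measure reproducibility.

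In shRRM2/shp16 against shRRM2 the fitted log2 fold change of CSF3 was 8.18 ± 0.14 (edgeR, adjusted p = 1.5e-38), the highest of the 16561 genes tested. CSF3 passed the filter on low counts only through its reads in shRRM2/shp16. Its ranks and p-values in both comparisons of that group therefore describe the data and are no separate support. The pooled reads gave a ratio of 299, with a 95% exact counting interval of 167 to 600. Without shRRM2 replicate c, which holds 8 of the 11 shRRM2 reads, the fitted value was 9.39. Against control the fitted value was 10.1 ± 0.17 (edgeR, adjusted p = 1.7e-39), again the highest of all tested genes, and depends on the fit's prior count because control is at the floor of 3 reads over the group. The pooled ratio was 1271, with a counting interval of 434 to 6164. These intervals cover counting error only, and reads without molecular identifiers are not independent molecules. On the log2 scale they run from 7.38 to 9.23 against shRRM2 and from 8.76 to 12.6 against control. The SEs of CSF3, which come from the test statistic, are far narrower. They understate its uncertainty at the few reads of control and shRRM2. In the authors' deposited table, the value for CSF3 in this comparison with shRRM2 is 7.97 on the log2 scale (q-value 4.4e-04).

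The CSF3 difference between shRRM2 and control was small in reads and rested on 1 library. The pooled ratio of 11 to 3 reads was 4.25, with a counting interval of 1.12 to 23.7, and the lowest shRRM2 library, at 0.0635 CPM, lay just above the highest control at 0.0596 CPM, with 1 read in each. CSF3 was tested here only because of its reads in shRRM2/shp16: with the 6 control and shRRM2 libraries alone it did not pass the filter and had no value. In the fit of all 9 libraries the log2 fold change was 1.95 ± 0.79 (edgeR, adjusted p = 0.0298). Without shRRM2 replicate c it was 0.75 (edgeR, adjusted p = 0.568), and the call was also lost with each control library left out in turn (edgeR, adjusted p = 0.0905, 0.0530 and 0.0508 without a, b and c), with DESeq2 (adjusted p = 0.0654) and without the filter on low counts (edgeR, adjusted p = 0.0590).

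CSF2 (ENSG00000164400, GRCh38 chr5:132073790-132076170, plus strand) stayed near the limit of detection in all 9 libraries. In control it had 1, 0 and 1 reads, or 0.0419, 0 and 0.0596 CPM, and a count of 0 in 1 library allows an expected count of up to 3 reads. In shRRM2 it had 2, 2 and 3 reads, or 0.127, 0.115 and 0.172 CPM. In shRRM2/shp16 it had 6, 3 and 10 reads, or 0.317, 0.149 and 0.537 CPM. Control lay below both other groups in every library, though only with 0 or 1 reads against 2 or more, while shRRM2 and shRRM2/shp16 overlapped.

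From pooled reads, CSF2 in shRRM2/shp16 was 9.65 times control (19 against 2 reads, counting interval 2.33 to 85.5). The ratio of shRRM2/shp16 to shRRM2 was 2.38 (19 against 7 reads, 0.958 to 6.70), and that of shRRM2 to control was 4.06 (7 against 2 reads, 0.772 to 40.0). Both of the latter intervals include no difference. CSF2 did not pass the filter on low counts and has no value in the fit as planned. When it was added to the tested genes, a choice made after its reads were seen, edgeR gave an adjusted p of 0.00107 for shRRM2/shp16 against control, 0.0907 for shRRM2/shp16 against shRRM2 and 0.109 for shRRM2 against control. In the authors' deposited table, CSF2 in shRRM2/shp16 against shRRM2 is given 1.31 on the log2 scale (q-value 0.287). At this depth CSF2 in shRRM2/shp16 reached 19 reads over 3 libraries where CSF3 reached 3752.

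**Figure D2:**
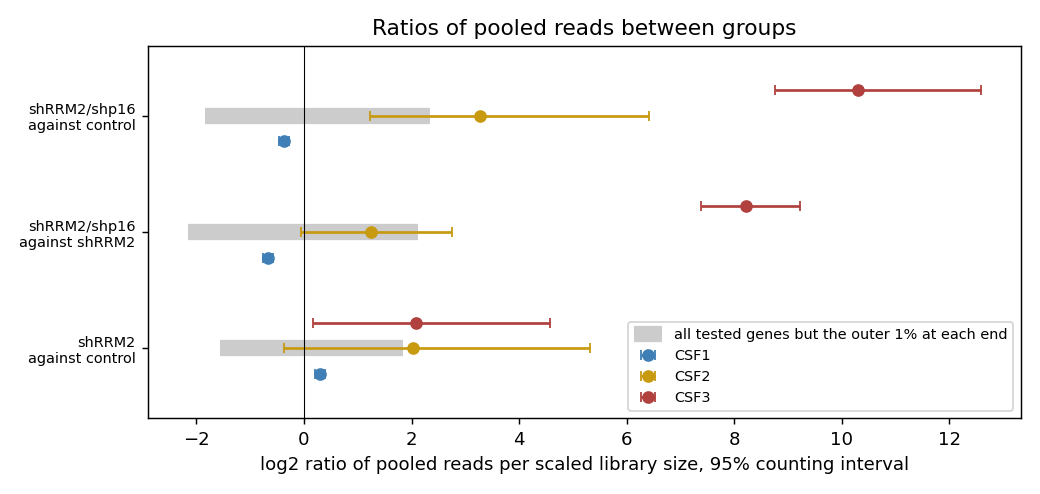
Log2 ratio of pooled reads per scaled library size for CSF1, CSF2 and CSF3 in each comparison (points), with 95% exact counting intervals (bars), over the range of the fitted log2 fold changes of the 16561 tested genes without the outer 1% at each end (grey). CSF3 lies far outside the grey range in both comparisons of shRRM2/shp16, CSF1 lies inside it in all 3, and the CSF2 intervals are wide. The points of CSF3 (2.09) and CSF2 (2.02) in shRRM2 against control also lie above the grey end at 1.84. So does CSF2 in shRRM2/shp16 against control (3.27, grey end 2.34). These rest on few reads, pooled ratios and fitted values are unlike measures, and CSF2 is not among the tested genes.

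Divided by the gene lengths implied by the authors' values (5418 bases for CSF1, 787 for CSF2 and 2220 for CSF3), the levels can be set against each other as RPKM, which scales reads to gene length and library size. CSF1 was at 6.85 ± 0.090, 8.42 ± 0.066 and 5.29 ± 0.11 RPKM in control, shRRM2 and shRRM2/shp16 (mean ± SD, n = 3). These SDs are below what counting error alone gives at the reads of CSF1, so they do not measure reproducibility. CSF3 was at 0.0236, 0.0958 and 29.3 RPKM in the same order, and CSF2 at 0.0430, 0.176 and 0.425 RPKM. CSF1 made up 99.0% ± 0.57 of the summed RPKM of the 3 genes in control and 96.9% ± 1.5 in shRRM2. In shRRM2/shp16 it made up 15.1% ± 0.30, and CSF3 made up 83.7% ± 0.80. The order of the levels thus changed. In control and shRRM2, CSF1 came first, 290 and 87.9 times CSF3 in mean RPKM, and CSF2 and CSF3 did not differ beyond their spread over libraries. In shRRM2/shp16, CSF3 came first at 5.54 times CSF1, and CSF2 came last with no overlap. These ratios and shares rest on 1 length per gene and would change with the transcripts in use. Annotated 3′ untranslated regions run from 9 to 2154 bases for CSF1 and from 98 to 854 bases for CSF3.

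**Figure D3:**
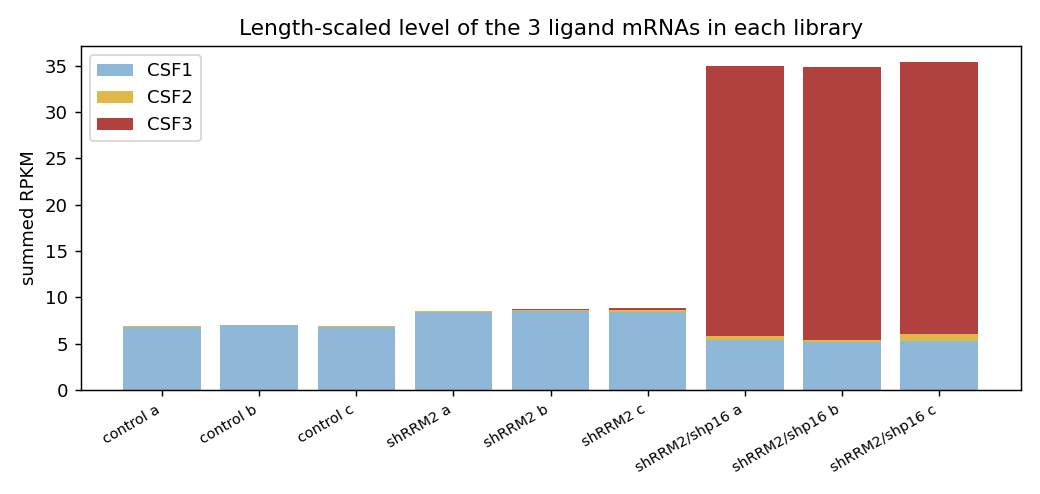
Summed RPKM of CSF1, CSF2 and CSF3 in each library, with 1 bar per library. In the 3 shRRM2/shp16 libraries CSF3 makes up most of each bar and the CSF1 segment is shorter than in the other 6 libraries, where nearly the whole bar is CSF1.

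The receptor chains for these ligands were near zero in all groups. CSF1R, the receptor for CSF1, had 3 to 18 reads per library and levels of 0.443 ± 0.27, 0.279 ± 0.093 and 0.208 ± 0.0083 CPM in control, shRRM2 and shRRM2/shp16. CSF2RA, the specific chain for CSF2, had 3 to 13 reads, and CSF2RB, the shared signalling chain, had 0 or 1. CSF3R, the receptor for CSF3, had 0 to 5 reads, with levels of 0.146 ± 0.077, 0.140 ± 0.072 and 0.120 ± 0.11 CPM, so its level in shRRM2/shp16 lay within the spread of the other groups. None of the 4 passed the filter on low counts. IL34, the other ligand of CSF1R, had 0 to 3 reads.

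Of 17 receptors and related haematopoietic ligands, 3 were tested. In shRRM2 against control 1 rose, 1 fell and 1 did not pass, and in shRRM2/shp16 against shRRM2 0 rose, 2 fell and 1 did not pass. With 3 genes, these counts cannot be set apart from the shares of all tested genes (29.0% higher and 31.8% lower, then 31.9% and 29.1%). KIT, the stem cell factor receptor and a kinase of the same family as CSF1R, had log2 fold changes of 0.52 ± 0.13 (edgeR, adjusted p = 4.7e-04) and -1.68 ± 0.15 (adjusted p = 2.4e-13) in these comparisons, with 5.16, 7.46 and 2.31 CPM in control, shRRM2 and shRRM2/shp16. Its ligand KITLG fell by 0.32 on the log2 scale in shRRM2/shp16 against shRRM2 (edgeR, adjusted p = 8.3e-08). EPOR, the erythropoietin receptor, fell by 0.38 in shRRM2 against control (edgeR, adjusted p = 0.0033).

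Among 14 cytokines and receptors that can induce colony-stimulating factors, 11 were tested. In shRRM2 against control 6 rose, 1 fell and 4 did not pass, with a median log2 value of 0.28 beside 0.00 for all genes. In shRRM2/shp16 against shRRM2 7 rose, 1 fell and 3 did not pass, with a median of 1.2 beside 0.01. Over all tested genes 29.0% rose and 31.8% fell in the former comparison, and 31.9% and 29.1% in the latter. IL1B, which encodes interleukin-1 beta, had 3.04 ± 0.76, 12.4 ± 1.2 and 216 ± 3.0 CPM in the 3 groups. It rose by 2.04 ± 0.12 on the log2 scale from control to shRRM2 and by 4.12 ± 0.06 from there to shRRM2/shp16 (edgeR, adjusted p = 2.7e-19 and 8.7e-43). IL1A, which encodes interleukin-1 alpha, rose by 1.37 and 3.45 in the same comparisons (edgeR, adjusted p = 8.7e-04 and 1.8e-21), from 0.393 to 1.02 and 11.3 CPM.

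The inducers did not all move in both comparisons. IL1R1, the receptor for both interleukin-1 forms, was at 110 ± 4.1, 106 ± 2.5 and 504 ± 8.8 CPM over the 3 groups, with a log2 fold change of 2.24 ± 0.03 between the last and shRRM2 (edgeR, adjusted p = 1.1e-41). IL33, an alarmin of the same family, was at 0.642, 0.595 and 5.59 CPM, and rose by 3.22 ± 0.22 between the last pair (edgeR, adjusted p = 9.8e-17). IL1RAP, the co-receptor, rose by 0.69 in shRRM2 against control (edgeR, adjusted p = 6.6e-09) and had a value of 0.01 in shRRM2/shp16 against shRRM2. IL17RA, a chain of the interleukin-17 receptor, fell by 0.25 in shRRM2/shp16 against shRRM2, and TNFRSF1A, the main receptor for tumour necrosis factor, fell by 0.25 in shRRM2 against control (edgeR, adjusted p = 2.1e-05 and 2.1e-08). TNF and IL17A themselves had 0 reads in all 9 libraries. A count of 0 in 1 library allows an expected count of up to 3 reads, and 0 in all 9 allows less in each.

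Of 22 transcription factors known to act at colony-stimulating factor promoters, 21 were tested. In shRRM2 against control 6 rose, 10 fell and 5 did not pass, and in shRRM2/shp16 against shRRM2 13 rose, 6 fell and 2 did not pass. The 6 that rose in the former and the 6 that fell in the latter are near the shares of all tested genes (29.0% higher, and 29.1% lower), while 31.8% of all genes fell in the former and 31.9% rose in the latter. CEBPB, a C/EBP factor of inflammatory genes, had 84.2 ± 2.4, 97.3 ± 5.3 and 321 ± 4.6 CPM in control, shRRM2 and shRRM2/shp16, and rose by 0.21 and then 1.72 on the log2 scale (edgeR, adjusted p = 1.2e-05 and 4.4e-36). RELB and NFKB2, the partners of non-canonical NF-kB signalling, rose by 0.52 and 0.32 in shRRM2 and by a further 1.58 and 1.13 in shRRM2/shp16 against shRRM2 (edgeR, largest adjusted p = 1.1e-05). NFATC1, a calcium-responsive factor, rose by 0.77 in shRRM2 against control (edgeR, adjusted p = 9.1e-07).

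The AP-1 subunits went in different directions. FOS was at 7.70, 3.63 and 11.6 CPM in control, shRRM2 and shRRM2/shp16, with log2 fold changes of -1.08 ± 0.13 and 1.68 ± 0.12 in the first 2 comparisons (edgeR, adjusted p = 6.5e-10 and 1.3e-16). FOSB had -1.53 and 1.16 in the same order (edgeR, adjusted p = 2.3e-13 and 1.6e-09). FOSL1, another Fos family member, fell at both steps, from 324 ± 6.5 to 176 ± 5.3 and 85.1 ± 3.2 CPM (edgeR, adjusted p = 1.7e-26 and 1.1e-27), and JUN fell at both from 134 to 92.1 and 61.2 CPM (adjusted p = 2.9e-16 and 3.0e-16). ETS1, which binds the CSF2 promoter with AP-1, fell by 0.65 in shRRM2/shp16 against shRRM2 (edgeR, adjusted p = 7.8e-19).

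Of 15 genes for the decay or stability of cytokine mRNAs, AU-rich or not, 14 were tested. The list includes ZC3H12A, RC3H1 and RC3H2, the 3 that rose in shRRM2 against control, whose action need not run through AU-rich sequence. In shRRM2 against control 3 rose, 10 fell and 1 did not pass, with a median log2 value of -0.20 beside 0.00 for all genes, of which 29.0% rose and 31.8% fell. In shRRM2/shp16 against shRRM2 5 rose, 5 fell and 4 did not pass, with a median of 0.01, the same as for all genes, and with counts near the shares of all genes (31.9% higher and 29.1% lower). ZC3H12A, the inflammatory RNase Regnase-1, which degrades cytokine mRNAs and is itself an interleukin-1 target, rose from 7.12 ± 0.60 and 9.0 ± 0.80 CPM in control and shRRM2 to 45.0 ± 1.4 CPM in shRRM2/shp16 (log2 fold change against shRRM2 of 2.32 ± 0.07, edgeR, adjusted p = 8.3e-29). RC3H1, which encodes the decay factor roquin, and TIA1, which binds AU-rich sequence, rose by 0.39 and 0.36 in the same comparison (edgeR, adjusted p = 3.3e-12 and 9.3e-09), and RC3H2, the paralogue of RC3H1, rose by 0.36 in shRRM2 against control (adjusted p = 1.3e-11).

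The fallen members included factors of both kinds. HNRNPD (AUF1), which promotes decay, went from 231 CPM in control to 145 CPM in shRRM2 (log2 fold change -0.68, edgeR, adjusted p = 2.1e-19). With both hairpins HNRNPD stayed at 145 CPM, a log2 fold change of 0.00 relative to shRRM2 (edgeR, adjusted p = 0.93). KHSRP, another decay factor, and ELAVL1 (HuR), which stabilises AU-rich mRNAs, fell at both steps (edgeR, largest adjusted p = 1.2e-08). KHSRP went from 281 to 180 and 151 CPM, and ELAVL1 from 129 to 93.8 and 75.6 CPM. ZFP36L2, a tristetraprolin relative, fell by 0.34 in shRRM2/shp16 against shRRM2 (edgeR, adjusted p = 7.1e-09).

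All 3 genes for the shedding of membrane-bound CSF1 rose in shRRM2 against control, where 29.0% of all tested genes rose. ADAM17, the main sheddase, rose by 0.26 and then by a further 0.41 in shRRM2/shp16 against shRRM2 (edgeR, adjusted p = 4.6e-05 and 2.2e-09), while CSF1 mRNA fell in the latter comparison. ADAM10, a related protease, rose by 0.46 and then had a log2 fold change of -0.21 (edgeR, adjusted p = 1.3e-16 and 2.3e-07). RHBDF2, which carries ADAM17 to the cell surface, rose by 0.78 in shRRM2 against control (edgeR, adjusted p = 3.4e-09) and had a value of 0.08 in shRRM2/shp16 against shRRM2.

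**Figure D4:**
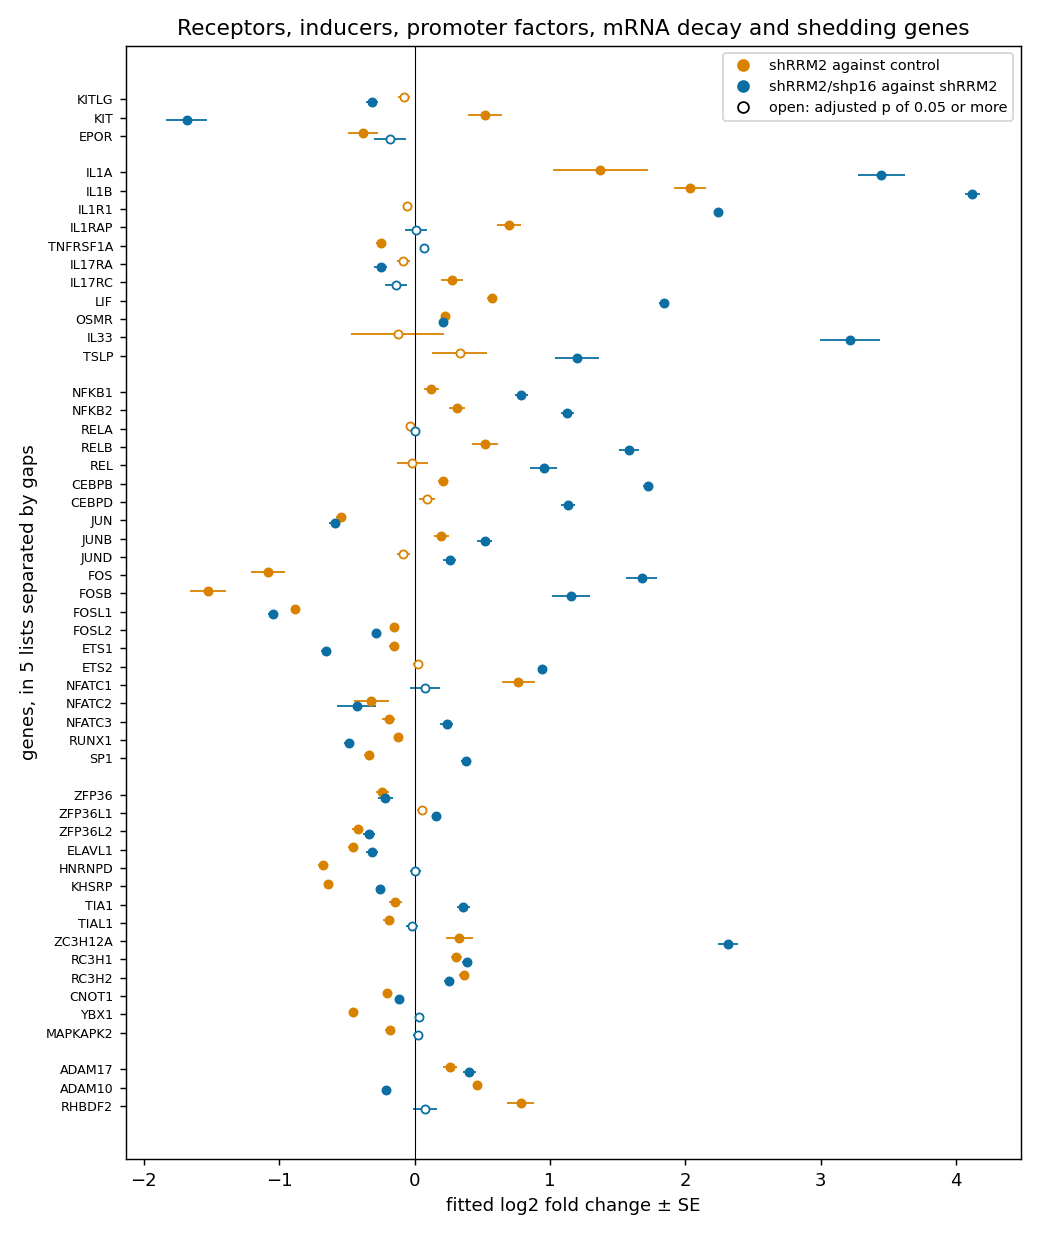
Fitted log2 fold change ± SE of the 52 tested genes of 5 lists in shRRM2 against control (orange) and shRRM2/shp16 against shRRM2 (blue). The 5 lists are receptors and related ligands, inducing cytokines and receptors, promoter transcription factors, cytokine mRNA decay and stability, and CSF1 processing. Open points did not pass an adjusted p of 0.05, and IL1B, IL1A and IL33 have the highest blue values.

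By the smallest root mean square difference between centred log2 CPM profiles over the 9 libraries, the genes most like CSF3 were CXCL1, CXCL5, CXCL8, CCL20 and CXCL6, all chemokines. The differences were 0.565, 0.798, 1.15, 1.29 and 1.41 log2 units, and Pearson's r over the 9 libraries was 0.992, 0.994, 0.990, 0.980 and 0.983, as a description of profiles that follow the 3 groups. They shared a far higher level in shRRM2/shp16 than in control and shRRM2, with levels and sizes of change that differed from those of CSF3. The profiles are centred, so the measure compares changes and not levels. As CSF3 had the highest fold change, its nearest genes were bound to be genes with large rises. CXCL1, the nearest, was at 1.0 ± 0.21, 1.33 ± 0.23 and 385 ± 4.6 CPM in control, shRRM2 and shRRM2/shp16, and CXCL8 was at 8.94, 15.2 and 1159 CPM. For CSF1 the nearest were MYO5A, GBF1, SEC24D, GSTO1 and VPS53, with differences of 0.0283 to 0.0399. MYO5A, a myosin motor of vesicle transport, was at 113 ± 1.6, 137 ± 2.6 and 89.4 ± 1.0 CPM. Because CSF1 fell and CSF3 rose in shRRM2/shp16 against shRRM2, their nearest genes were bound to differ. The measure is a description over libraries that fall in 3 groups.

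No tested protein-coding gene within 100 kb of CSF3 rose by more than 0.21 where CSF3 rose by 8.18 on the log2 scale. MED24, a Mediator subunit whose gene ends 1284 bases beyond CSF3 on the other strand, had 0.00 ± 0.05 in shRRM2/shp16 against shRRM2 on the log2 scale, and PSMD3, a proteasome subunit gene upstream, had 0.01 ± 0.04 (edgeR, adjusted p = 0.97 and 0.80). Of 8 protein-coding neighbours within 100 kb, 6 were tested. THRA, a thyroid hormone receptor, was the 1 that rose, by 0.21 (edgeR, adjusted p = 3.6e-04), ORMDL3 and GSDMB had -0.46 and -0.36 (adjusted p = 1.0e-11 and 0.0031), and NR1D1 had 0.08 (adjusted p = 0.26). GSDMA had 1 to 11 reads per library and LRRC3C had 0.

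The neighbours of the other members were few. AHCYL1, the only protein-coding gene within 100 kb of CSF1, had -0.03 in shRRM2 against control and rose by 0.13 in shRRM2/shp16 against shRRM2 (edgeR, adjusted p = 0.46 and 0.0012), where CSF1 fell. IL3, which lies 10586 bases upstream of CSF2 and is induced with it in T cells, had 0 reads in all 9 libraries, and ACSL6 had 1 to 12 reads. A further neighbour, AC026398.1, was not analysed here.

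**Figure D5:**
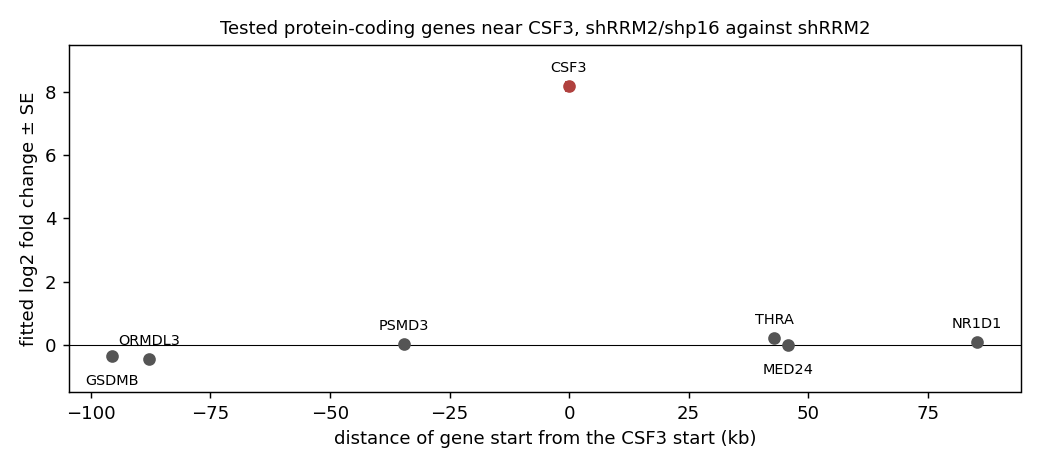
Fitted log2 fold change ± SE in shRRM2/shp16 against shRRM2 for CSF3 and the 6 tested protein-coding genes within 100 kb, by the distance of each gene's start from the CSF3 start in kb. CSF3 lies at 8.18 and the neighbours lie between -0.46 and 0.21. The SE of CSF3 is narrower than its counting interval and understates its uncertainty.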

How the data were processed

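The authors deposited a raw count of reads for every Ensembl gene and library, in HTSeq's layout, and a table of log2 RPKM values with the log2 fold change, p-value and q-value of their comparison of shRRM2/shp16 with shRRM2. TopHat2 2.0.9, Cufflinks 2.0.2, Cuffdiff and GRCh38 are named in the submitters' processing notes. The strand setting and annotation release are not given in the sources used here. The 3 genes overlap no other annotated gene in GENCODE 29. Entries naming no gene were left out: reads outside genes were 17.6% to 28.8% of uniquely aligned reads, and multiply aligned entries 40.4% to 44.9% of the tally. The log2 values equal log2(x + 1) of length-scaled reads. In shRRM2 replicate c that column does not follow its count file (6.30% of 8233 genes within 1%, against 100% in the other 8 libraries), so levels were computed from counts. There were 0 per-sample columns that matched no sample.

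Counts were tested with edgeR 4.0.16 (R 4.3.3): filterByExpr, TMM scaling, 1 quasi-likelihood fit of all 9 libraries with 6 residual degrees of freedom, two-sided, Benjamini-Hochberg over 16561 genes, threshold 0.05. The code was tested on simulated data. The SE of a fitted log2 fold change is its absolute value over the square root of the F statistic of the test. Intervals of pooled ratios are exact conditional binomial, at 95%. An exact permutation test of 3 against 3 libraries cannot go below 0.1 and was not used. Replicate libraries differed beyond counting noise (chi-square per degree of freedom 1.44 to 2.95 in 9 pairs). The difference was small: the fit's common coefficient of variation between replicates, beyond counting error, was 0.027.

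The genes and lists were chosen with earlier results of these data known. Named genes were the members, their receptors, up to 3 highest and 3 lowest called genes per list in shRRM2/shp16 against shRRM2 and in shRRM2 against control, the 5 nearest profiles (prior count 1) and protein-coding neighbours within 100 kb. The other named list members (IL1R1, IL34, TNF, IL17A, and marker genes) were chosen after their values were seen. Alternatives were RLE factors, DESeq2 1.42.0, other filters, 6 libraries, a replicate block, limma 3.58.1 on log2 values and leaving out each library. The summed level of the lymphoid marker list is not reported here.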

Additional observations from a re-analysis of the deposited data

Results flagged for a closer look

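In the authors' log2 RPKM column for shRRM2 replicate c, CSF3 has a value that corresponds to 1.15 RPKM. The count file of the same library gives 0.207 RPKM from 8 reads, and the highest control column gives 0.0259 RPKM. CSF1 also differs there, at 6.71 RPKM in that column and 8.43 RPKM from the counts. The result stands out because it lies in a column that the comparisons by counts do not use and is above the level in the control samples. Both sources place the CSF3 level of this library above control and far below shRRM2/shp16, and which of them is right was not tested.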

How the results depend on the processing

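Of 84 tested values of CSF1 and CSF3 computed under other settings, 73 kept their direction and side of the threshold, 11 lost the call and 0 reversed. The 27 values of CSF2 (pooled ratios with a library left out, and fits that include it) kept their direction and stayed within the counting interval of the reported ratio. Those intervals are so wide that this is a weak check, and no threshold was applied to CSF2. CSF3 in shRRM2 against control lost its call with DESeq2 (2.07) and without the low-count filter (1.91). The call was also lost with limma on log2(RPKM + 0.1) (1.24, and 0.19 with the 8 columns that follow their count files, added after seeing the data). Limma on the deposited values lost it too (0.00056), and the CSF3 value ran from 0.75 to 2.35 with each library left out. On the deposited scale, whose added 1 dwarfs the values, CSF1 also lost its calls in shRRM2 against control (0.0017, limma adjusted p = 0.0505) and in shRRM2/shp16 against control (-0.0016, limma adjusted p = 0.0565); the small log2 units follow from that scale. CSF1 and CSF3 kept every call in shRRM2/shp16 against shRRM2. Calls over the context lists ranged from 34 to 44 in shRRM2 against control (41 in the main fit). They ranged from 39 to 43 in shRRM2/shp16 against shRRM2 (41) and from 46 to 51 in shRRM2/shp16 against control (48). Of the 71 genes on these lists 52 were tested in the main fit, and other filters tested other numbers. Over all tested genes 29.0% rose and 31.8% fell in shRRM2 against control. The shares were 31.9% and 29.1% in shRRM2/shp16 against shRRM2, and 30.0% and 32.4% in shRRM2/shp16 against control. With the replicate letters as a replicate block, CSF1 gave 0.30, -0.67 and -0.37 and CSF3 gave 1.95, 8.18 and 10.1 with no change of call. Libraries with the same letter did not deviate together (r from -0.018 to 0.042 over 9 pairs), so the letters are not shown to pair samples. CSF2 had no value under RLE factors, the block, 6 libraries or limma, a minimum of 10 counts in every library left neither CSF2 nor CSF3, and CSF3 had no value in shRRM2 against control with those 6 libraries. Depth limits CSF2 in all groups, the 4 receptor chains, and CSF3 in control and shRRM2.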
